A study of Homo sapiens with 6 samples.

Results

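MLT1 elements are old long terminal repeats (LTRs) of the mammalian apparent LTR retrotransposons, non-autonomous relatives of the ERVL endogenous retroviruses. Members were all RepeatMasker LTR features whose name starts with MLT1, and there were 236071 of them among 720177 LTR features, or 32.8% of the elements and 24.4% of the annotated LTR bases. Of these, 225062 were LTRs of 29 named subfamilies and 11009 were internal pieces, whose names end in -int. The median member was 262 bp long. RNA came from 4 established cell lines of atypical teratoid rhabdoid tumor, a childhood brain tumor marked by loss of SMARCB1, CHLA 02, CHLA 04, CHLA 05 and, from a tumor of another molecular subgroup, CHLA 06. There were 6 libraries, a single one for CHLA 02 and for CHLA 05 and 2 technical replicates for CHLA 04 and for CHLA 06. No treatment is named for any line, and all grew in DMEM:F12 medium with EGF, basic FGF and B-27 supplement. Each line can stand only for the tumor it came from, and the purity of the lines was not tested. With 1 biological sample per line no test between lines was possible, and p-values below are over the 4 lines.

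An intact MLT1 provirus carried an LTR at each end of its internal sequence. Most copies in the genome are solitary LTRs, left when the ends recombined and the internal part was lost. An LTR can hold a promoter, an enhancer and a polyadenylation signal, and a copy inside a gene can also be copied into RNA as a stretch of an intron or of a 3′ exon. MST and THE1 elements are younger members of the same superfamily, and MLT2 elements are LTRs of the ERVL group.

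The values were TPM, read numbers that the authors divided by element length and scaled to a fixed total in each library, with LTR elements and genes scaled separately. Reads were recovered from them as whole numbers, and density is given as reads per kb of element. The libraries held 355302 to 511408 reads on LTR elements, of which 84370 to 125804 lay on MLT1 elements. One read on an MLT1 element of median length was worth 3.43 to 5.10 TPM, so low levels were coarse. In the gene table, VIM was at 4629 to 19464 TPM in the 6 libraries and SMARCB1 at 13.5 to 26.2 TPM. Of the neural genes, the neuronal tubulin TUBB3 was at 205 to 455 TPM, NES at 5.21 to 27.6 TPM, SOX2 at 0 to 4.03 TPM and PAX6 at 0.604 to 36.9 TPM. Another gene entry under the TUBB3 symbol was at 3.55 to 30.4 TPM. Among 7 markers of other cell types, PTPRC, PECAM1 and ALB stayed at or below 0.743 TPM. COL1A2 ranged from 0 to 7.12 TPM, CD68 from 0.236 to 22.6 TPM and DCN from 0 to 42.9 TPM. COL1A1 was at 387 TPM in CHLA 02 and 459 to 600.3 TPM in CHLA 06, and at 0.679 to 11.5 TPM in the other 3 libraries. In these bulk samples, fewer cells of a type and less RNA per cell cannot be told apart.

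The 5 MLT1A0 copies described below outside exons were 69.7% to 78.3% identical to each other in pairs, and other subfamilies were not aligned. Of these copies, 3 are shown because they lie at unrelated positions and their levels differed between lines. They lie inside and outside the genes of the deposited files, and the labels below refer to those genes only. In GENCODE release 44, a newer annotation, the chromosome 11 copy lies inside RDX and an unnamed long noncoding RNA gene, both on its strand. It also overlaps another unnamed long noncoding RNA gene on the opposite strand. The last 300 bases of each are given 5′ to 3′ on the strand of the element, read from the GRCh38 genome, with matches to AATAAA, the common polyadenylation hexamer, in capitals.
MLT1A0 in an ANK3 intron, opposite strand, chr10:60415968-60416267, plus strand: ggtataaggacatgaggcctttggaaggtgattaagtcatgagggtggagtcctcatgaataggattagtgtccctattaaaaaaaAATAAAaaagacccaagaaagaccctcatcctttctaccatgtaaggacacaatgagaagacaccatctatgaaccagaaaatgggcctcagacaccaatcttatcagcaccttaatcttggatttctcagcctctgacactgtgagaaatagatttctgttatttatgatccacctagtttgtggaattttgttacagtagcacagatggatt
MLT1A0 outside genes, chr11:109952940-109953239, minus strand: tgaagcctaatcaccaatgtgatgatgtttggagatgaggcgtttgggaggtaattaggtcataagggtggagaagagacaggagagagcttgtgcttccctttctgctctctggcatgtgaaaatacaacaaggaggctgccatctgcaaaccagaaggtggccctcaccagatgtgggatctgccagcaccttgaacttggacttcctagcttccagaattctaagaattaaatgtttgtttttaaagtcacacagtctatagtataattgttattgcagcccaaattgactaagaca
MLT1A0 outside genes, chr14:43026812-43027111, plus strand: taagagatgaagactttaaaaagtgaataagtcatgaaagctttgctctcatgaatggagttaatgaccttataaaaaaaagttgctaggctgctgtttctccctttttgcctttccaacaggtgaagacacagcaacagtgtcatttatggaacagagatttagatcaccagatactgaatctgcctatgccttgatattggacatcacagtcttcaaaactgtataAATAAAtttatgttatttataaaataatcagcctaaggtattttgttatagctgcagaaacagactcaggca
In global alignments of the whole elements, columns with a gap were left out of the identities. The ANK3 copy was 74.4% identical to the chromosome 11 copy over 320 aligned columns, and 69.7% identical to the chromosome 14 copy over 340. The copies on chromosomes 11 and 14 were 72.2% identical over 327 columns. The hexamer lay once in the ANK3 copy, at base 155 of the element, and once in the chromosome 14 copy, at base 295. The copy on chromosome 11 had no match, and none of the 3 had the hexamer on the other strand. Among MLT1 elements of at least 350 and under 450 bp, -int pieces left out, 40.2% held AATAAA on their own strand and 14.3% on the other. Over all LTR elements of that length, with -int pieces counted, the shares were 32.7% and 17.9%. The further shares of THE1 and MLT1 elements in this paragraph also leave out -int pieces. Among THE1 elements of that length the order was the opposite, with 8.72% on the own strand and 24.6% on the other. Of the MLT1 elements of that length, 48.4% began with TG and 43.6% ended with CA, the usual ends of an LTR, and 23.6% had both. In introns, 36.3% of the MLT1 elements of that length with at least 10 reads in a library held the hexamer, and 40.4% of those with no read did. The shares were 36.6% and 41.0% outside genes and 42.1% and 40.3% in exons.

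MLT1 elements took 23.7% to 24.7% of the LTR reads of a library, close to their share of the annotated bases. The share was 23.8% in CHLA 02 (95% Wilson interval 23.7 to 23.9), 23.7% (23.6 to 23.9) and 24.6% (24.5 to 24.7) in the CHLA 04 replicates, 24.7% (24.5 to 24.8) in CHLA 05, and 24.6% (24.5 to 24.7) and 24.7% (24.6 to 24.8) in the CHLA 06 replicates. The intervals and floors given here cover counting error only. The CHLA 04 replicates alone covered most of that range, and the pooled SD between technical replicates was 0.43 percentage points. A read was seen in 6.11% to 7.599% of the MLT1 elements of a library. Over the 6 libraries together, 200177 elements (84.8%) had no read, 13794 had reads in a single library and 5376 (2.28%) had a read in all 6. At least 10 reads in a library were found on 5666 MLT1 elements (2.40%), against 2.76% of all LTR elements, and 240 reached 100 reads. The 1000 elements with the most reads took 41.8% to 49.998% of the MLT1 reads of a library.

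Read density on MLT1 elements was 1.70 reads per kb in CHLA 02, 1.30 and 1.93 in the CHLA 04 replicates, 1.57 in CHLA 05, and 1.70 and 1.83 in the CHLA 06 replicates. Densities follow the depth of a library, so ratios and tests between classes of elements were taken within libraries. Densities of different libraries that are set side by side below were not adjusted for depth. Against all other LTR elements the mean log2 ratio over the 4 lines was -0.0024 ± 0.033 (SD, n = 4; two-sided exact sign-flip permutation test p = 1), and single libraries ranged from 0.967 to 1.02-fold. MST elements were denser in every library, at 1.77 to 2.84 reads per kb, and MLT1 lay below them by a mean log2 ratio of -0.49 ± 0.31 (SD, n = 4; exact permutation p = 0.13). MLT2 elements were sparser in every library, at 0.919 to 1.35 reads per kb, and MLT1 lay above them by 0.53 ± 0.12 on the log2 scale (SD, n = 4; exact permutation p = 0.13). THE1 elements had 1.57 to 2.10 reads per kb, and the ratio of MLT1 to THE1 was -0.18 ± 0.13 on the log2 scale (SD, n = 4; exact permutation p = 0.25). With 4 lines this test cannot give a p below 0.13 (rounded up), so no ratio could pass a threshold of 0.05. In exonic elements alone the ratios to MST and THE1 turned to 0.012 and 0.080 on the log2 scale. In elements outside genes the ratio to MST was -1.13 (0.458-fold), that to THE1 -0.10 and that to all other LTR elements -0.24.

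Read density differed more between locations within MLT1 than between MLT1 and the related families. Of the members, 5496 overlapped an exon of a transcript in the deposited gene files by at least 1 base, 96839 lay in introns and 133736 in neither. Exonic elements had 9.004 reads per kb in CHLA 02, 6.71 and 12.9 in the CHLA 04 replicates, 10.2 in CHLA 05, and 9.15 and 9.93 in the CHLA 06 replicates. Intronic elements had 2.60 reads per kb in CHLA 02, 2.03 and 2.84 in the CHLA 04 replicates, 2.44 in CHLA 05, and 2.61 and 2.74 in the CHLA 06 replicates. Elements in neither had 0.708 reads per kb in CHLA 02, 0.506 and 0.757 in the CHLA 04 replicates, 0.527 in CHLA 05, and 0.685 and 0.783 in the CHLA 06 replicates. The 3 ranges did not overlap. Exonic density exceeded intronic density 3.30 to 4.52-fold in single libraries, with a mean log2 ratio of 1.91 ± 0.12 (SD, n = 4 lines; exact permutation p = 0.13, higher in 4 of 4 lines). Intronic density exceeded that outside genes 3.50 to 4.64-fold, with a mean log2 ratio of 1.98 ± 0.16 (SD, n = 4 lines; exact permutation p = 0.13, higher in 4 of 4 lines). Exonic elements, 2.33% of the members, held 13.6% to 17.5% of the MLT1 reads of a library. Introns held 60.5% to 64.4%, and the remaining 18.9% to 24.11% lay outside genes. By the share of elements with a read, the exon to intron ratio was 1.99-fold and the intron to neither ratio 2.44-fold.

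The highest ratio among these comparisons was between strands. Among intronic MLT1 elements in genes of a single strand, 30949 had the orientation of the gene and 61486 the opposite one, so that 33.5% were on the gene's strand. The elements on the gene's strand took 87.6% to 92.1% of the reads. Their density was 6.77 reads per kb in CHLA 02, 5.38 and 7.49 in the CHLA 04 replicates, 6.57 in CHLA 05, and 6.63 and 6.99 in the CHLA 06 replicates. For the opposite strand, density was 0.388 reads per kb in CHLA 02, 0.242 and 0.365 in the CHLA 04 replicates, 0.284 in CHLA 05, and 0.472 and 0.4999 in the CHLA 06 replicates. The ratio was 14.0 to 23.2-fold in single libraries, with a mean log2 ratio of 4.22 ± 0.32 (SD, n = 4 lines; exact permutation p = 0.13, higher in 4 of 4 lines). In host genes above 1 TPM in every library the ratio was 41-fold, and by the share of elements with a read it was 8.84-fold. Among the other families the mean strand ratio in introns was 28.8-fold for MST, 12.7-fold for THE1, 18.0-fold for MLT2 and 14.0-fold for the remaining LTR elements. THE1 was uneven, with 2.74 and 3.43-fold in the CHLA 06 replicates and 12.01 to 30.1-fold in the other 4 libraries. The log2 strand ratio of MLT1 minus that of MST was -0.63 ± 0.20 (SD, n = 4 lines; exact permutation p = 0.13). It was 0.55 ± 1.16 against THE1 (SD, n = 4 lines; exact permutation p = 0.5) and 0.06 ± 0.61 against MLT2 (exact permutation p = 0.88), both differences smaller than their spread over lines. Against the remaining LTR elements it was 0.41 ± 0.17 (SD, n = 4 lines; exact permutation p = 0.13, higher in 4 of 4 lines). Exonic MLT1 elements showed a ratio of 16.0 to 25.8-fold, with 12.1 to 24.2 reads per kb on the gene's strand and 0.583 to 1.01 on the opposite one. Opposite-strand elements in introns were less dense than elements outside genes in every library.

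**Figure D1:**
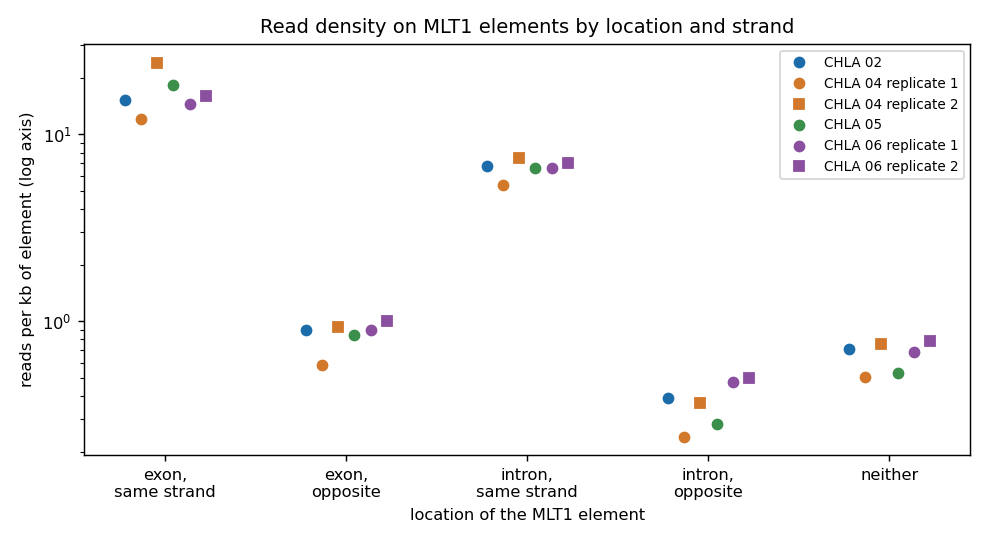
Read density on MLT1 elements (reads per kb of element, log axis) by location and by strand relative to the gene, with 1 point per library, coloured by cell line, and squares for the second technical replicate. Exonic and intronic elements on the gene strand sit at 5.38 to 24.2 reads per kb, and elements on the opposite strand and outside genes sit between 0.242 and 1.01.

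The density of intronic elements on the gene's strand was higher in each higher class of level of the gene that held them. The gene level is the sum of its transcripts' TPM, averaged over the 4 lines, from the separate mapping to Ensembl transcripts. In genes at 0 TPM, 7800 same-strand elements had 0.18 to 0.30 reads per kb. In genes up to 1 TPM the density was 0.78 to 1.002 reads per kb, and in genes above 1 and up to 10 TPM it was 3.49 to 5.03. In genes above 10 and up to 100 TPM it was 12.6 to 18.6 reads per kb, and 1275 elements in genes above 100 TPM had 30.9 to 45.4. Opposite-strand elements went only from 0.20 to 0.31 reads per kb in genes at 0 TPM to 0.29 to 1.51 in genes above 100 TPM. In that top class CHLA 02 (0.91 reads per kb) and CHLA 06 (1.51 and 1.45) lay above CHLA 04 (0.29 and 0.42) and CHLA 05 (0.35). A single gene, ANK3, described below, carried that gap, since its 27 opposite-strand copies held 54.3% of the reads of the class in CHLA 02, 70.8% and 63.8% in the CHLA 06 replicates and none elsewhere. Without them the class had 0.42 reads per kb in CHLA 02, 0.44 and 0.53 in CHLA 06 and 0.30 to 0.42 in the other 3 libraries. Same-strand elements with at least 10 reads in a library had host genes with a median of 33.6 TPM (n = 3314), and those with no read had host genes with a median of 0.026 TPM (n = 17909). Among opposite-strand elements the medians were 8.07 TPM (n = 268) and 3.04 TPM (n = 56504).

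**Figure D2:**
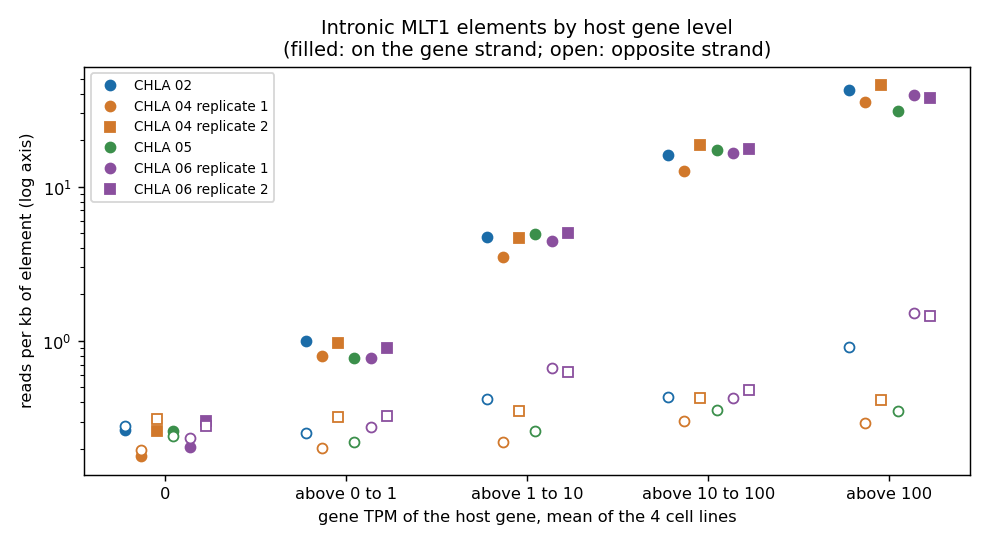
Read density of intronic MLT1 elements (reads per kb, log axis) in 5 classes of host gene level (gene TPM, mean of the 4 cell lines), with 1 point per library, filled for elements on the gene strand and open for the opposite strand. Filled points climb from 0.18 to 0.30 in genes at 0 TPM to 30.9 to 45.4 in genes above 100 TPM, while open points stay at or below 1.51.

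Elements outside genes were densest just downstream of a gene on its strand. Within 5 kb of the end of a gene, 3990 MLT1 elements on the gene's strand had 2.85 to 5.09 reads per kb, and 4965 on the opposite strand had 0.60 to 0.99. Within 5 kb upstream the densities were 0.74 to 1.29 on the gene's strand and 0.77 to 1.28 on the opposite one. From 5 to 20 kb the downstream same-strand density was 1.34 to 2.13 reads per kb, from 20 to 100 kb it was 0.48 to 0.93, and beyond 100 kb it was 0.14 to 0.29. Up to 20 kb from a gene the ranges of downstream same-strand elements and of the other 3 kinds did not overlap. From 20 to 100 kb the range overlapped those upstream, 0.28 to 0.76 on the gene's strand and 0.32 to 0.64 on the opposite one. Beyond 100 kb it overlapped all the others, and upstream elements on the gene's strand had 0.21 to 0.62 reads per kb. The files use an older annotation, Ensembl release 82, and 20804 (15.6%) of the gene-free elements lay inside a gene of GENCODE release 44. Those on the strand of such a gene had 1.53 to 2.76 reads per kb, and gene-free elements outside every such gene had 0.397 to 0.631. Of the 1291 gene-free elements with at least 10 reads in a library, 395 (30.6%) lay inside a GENCODE gene and 344 of these had a GENCODE gene on their own strand.

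**Figure D3:**
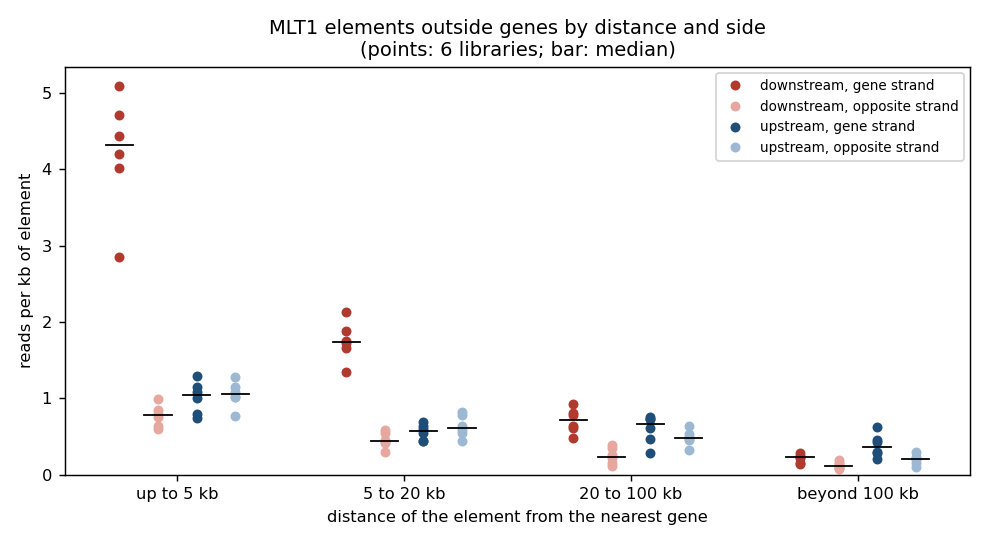
Read density of MLT1 elements outside genes (reads per kb) by distance from the nearest gene, with 1 point per library and a bar at the median, for elements downstream or upstream of the gene and on its strand or the opposite one. Elements within 5 kb downstream on the gene strand sit at 2.85 to 5.09 reads per kb, above the other 3 kinds, which stay at or below 1.29.

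Among the 29 LTR subfamilies, all of at least 500 elements, mean density over the 4 lines ran from 1.03 reads per kb in MLT1J1 (4948 elements) to 2.39 in MLT1E (879 elements). MLT1E rested on a single copy, in the last exon of VEPH1, which held 54.3% of its reads, and its density was 4.51 and 4.86 in CHLA 06, 2.93 in CHLA 02 and 0.87 to 1.22 in the other 3 libraries. The next were large and even, with MLT1D (20576 elements) at 1.61 to 2.47 reads per kb and MLT1A0 (20605 elements) at 1.68 to 2.46. MLT1D held 86120 reads over all libraries and MLT1A0 71775, the highest totals of any subfamily, and their most-read copies took 3.34% and 1.98% of them. At the low end MLT1J1 had 0.78 to 1.18 reads per kb and MLT1H 0.88 to 1.21, and both ranges lay below those of MLT1D and MLT1A0. Single copies also set the spread of MLT1J and MLT1H2, with 19.5% and 20.5% of their reads on 1 element. MLT1J had 1.22 and 2.71 reads per kb in the 2 CHLA 04 replicates, and MLT1H2 had 2.49 in CHLA 05 and 0.83 to 1.57 elsewhere.

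Between libraries, the order of the 29 subfamilies was correlated with Spearman's rho from 0.41 to 0.97, as a description over subfamilies whose reads come from the same libraries. Mean density went with median length of the copies (rho = 0.56, n = 29 subfamilies) and with the share of intronic copies on the gene's strand (rho = 0.41). That share ran from 26.8% in MLT1J to 40.7% in MLT1D. With the share of copies that lay in genes, rho was only 0.18. On the gene's strand in introns, MLT1E2, MLT1A0, MLT1F and MLT1A had 8.02 to 8.22 reads per kb, against 2.79 in MLT1E1, 3.76 in MLT1E and 4.23 in MLT1H. Outside genes the same 4 subfamilies had 0.65 to 0.81 reads per kb, and MLT1H had 0.67. LTR features were 1.15 to 1.21 times as dense as the -int features. Among 22 -int features of at least 100 pieces, means ran from 0.26 reads per kb in MLT1H1-int to 3.28 in MLT1G-int, where 1 piece held 62.5% of the reads.

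**Figure D4:**
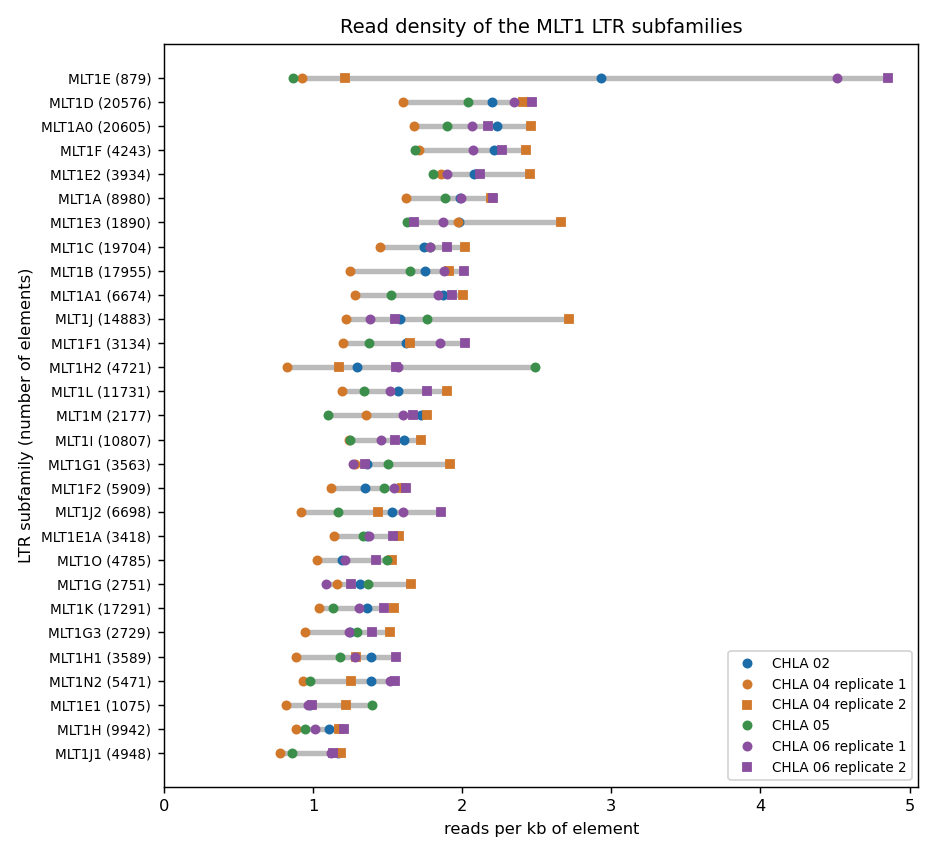
Read density (reads per kb) of the 29 MLT1 LTR subfamilies, ordered by their mean over the cell lines, with 1 point per library and a grey bar from the lowest to the highest library. MLT1D and MLT1A0 stay between 1.61 and 2.47 reads per kb in all libraries, and MLT1E spreads from 0.87 to 4.86.

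The highest exonic elements were stretches of last exons of expressed genes, all on the gene's strand. An MLT1J at chr3:58564063-58564431 lay in the last exon of FAM107A, an actin-associated protein. Its level was 1655 TPM in CHLA 02, 3713 and 9794 TPM in the CHLA 04 replicates, 4284 TPM in CHLA 05, and 5.55 and 20.8 TPM in CHLA 06. The CHLA 04 replicates stood apart, with 1026 and 4020 reads, and both CHLA 06 libraries lay far below the rest. The gene FAM107A had 224 TPM in CHLA 02, 792 and 1361 in the CHLA 04 replicates, 539 in CHLA 05, and 0.98 and 1.34 in CHLA 06. Element and gene gave the lines the same order by their means. That exon holds 315 of the element's 369 bases, and both values come from the same libraries. The same reads can therefore count in both, so the like order is not separate evidence. An MLT1H2 at chr1:166917730-166918098 lay in the last exon of ILDR2, an immunoglobulin-like membrane protein. Its level was 4564 TPM in CHLA 05, 56.5 TPM in CHLA 02, 398 and 383 TPM in CHLA 04, and 2.78 and 7.79 TPM in CHLA 06. ILDR2 was at 334 TPM in CHLA 05 and at or below 49.4 TPM elsewhere, and its level can likewise hold reads of the element. An MLT1E at chr3:157259707-157260275 in the last exon of VEPH1 was at 778 TPM in CHLA 02 and 1530 and 1518 TPM in CHLA 06, and at 0 to 7.90 TPM in the other 3 libraries.

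The other 5 exonic elements were high in every library. An MLT1D at chr7:44828697-44829092 in the last exon of H2AFV, an H2A.Z histone gene, ranged from 747 to 2145 TPM. A pair of MLT1K copies at chr22:30978674-30978896 and chr22:30978432-30978603, in the last exon of the long noncoding RNA TUG1, ranged from 587 to 825 and from 419 to 886 TPM. An MLT1K at chr18:35332343-35332814 in ZNF24, a zinc-finger factor, ranged from 451 to 1022 TPM. An MLT1B at chr9:112471253-112471587 in HSDL2, a peroxisomal dehydrogenase-like enzyme, ranged from 389 to 648 TPM. Of their host genes, TUG1 was at 133 to 172 TPM and HSDL2 at 39.4 to 70.9 TPM. Over all exonic elements on the strand of the transcript, 1879 in last exons had 14.8 to 30.4 reads per kb, 643 in first exons 4.83 to 7.96 and 674 in internal exons 5.42 to 7.396. By transcript type in GENCODE, 583 in protein-coding transcripts had 35.1 to 77.6 reads per kb and 2186 in long noncoding transcripts 3.50 to 5.26.

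The highest intronic elements had high levels in some lines and few or no reads in others. In all 8, CHLA 02 lay between the line means of CHLA 04 and CHLA 06. That did not hold for every exonic and gene-free copy named, and its cause was not tested. In an intron of ANK3, which encodes ankyrin-G and lies on the minus strand, an MLT1A0 at chr10:60415900-60416267 on the plus strand was at 791 TPM in CHLA 02, 1706 and 1347 TPM in CHLA 06, and 0 in CHLA 04 and CHLA 05. An MLT1C at chr10:60450881-60451338, also on the plus strand, was at 425 TPM in CHLA 02, 1036 and 885 TPM in CHLA 06, and 0 in the other 3 libraries. Just before the MLT1A0, an LTR78 and an MLT2B1 on the plus strand had 226 and 186 reads in CHLA 02, 450 to 487 and 329 to 412 reads in CHLA 06, and none in CHLA 04 or CHLA 05. Reads opposite to ANK3 thus lay on elements of several families. ANK3 itself was at 353 TPM in CHLA 02, 786 and 562 TPM in CHLA 06, and 0.97 to 3.19 TPM in CHLA 04 and CHLA 05. Of the 27 plus-strand MLT1 elements in ANK3 only these 2 reached 10 reads, and the single minus-strand MLT1 element had 46 reads in CHLA 02 and 95 and 120 in CHLA 06. GENCODE release 44 listed no plus-strand gene or exon at either copy. COL1A1 and DCN, markers of fibroblasts, were also higher in CHLA 02 and CHLA 06 (DCN at 20.1, 42.9 and 30.2 TPM) than in the other 3 libraries (DCN at most 1.71 TPM). COL1A2, another fibroblast collagen, did not follow that order, at 1.36 TPM in CHLA 02, 0 and 0.026 TPM in CHLA 06 and up to 7.12 TPM in the others. The part of such cells in the ANK3 values was not tested.

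A like pattern over lines held in RP11-148L24.1, a long noncoding RNA gene named LINC02268 in GENCODE. Its MLT1J2 at chr4:174100184-174100530 was at 590 TPM in CHLA 02, 1296 and 1566 TPM in CHLA 06, and 0 in CHLA 04 and CHLA 05. Its MLT1A0 at chr4:174158344-174158681 was at 450 TPM in CHLA 02, 1146 and 1010 TPM in CHLA 06, and again 0 in the other 3 libraries. These were the only 2 MLT1 copies on the gene's strand, and the 7 on the other strand had 1 read in all libraries together. The gene was at 68.5 TPM in CHLA 02, 100.1 and 91.6 TPM in CHLA 06, and 0 to 0.12 TPM elsewhere. In SLIT2, a secreted axon guidance ligand, an MLT1H2 at chr4:20304410-20304900 was at 526 TPM in CHLA 02, 1143 and 879 TPM in CHLA 06, 215 TPM in CHLA 05, and 10.88 and 10.99 TPM in CHLA 04. All 5 same-strand MLT1 copies of SLIT2 had at least 10 reads in a library, and 1 of the 13 on the opposite strand did.

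In ADGRB3, a brain adhesion receptor, CHLA 04 was highest and CHLA 06 lowest. Its MLT1I at chr6:68652929-68653333 was at 725 and 770 TPM in CHLA 04, 500.2 TPM in CHLA 02, 125 TPM in CHLA 05, and 2.53 and 0 TPM in CHLA 06. Its MLT1A0 at chr6:68679888-68680224 was at 1014 and 702 TPM in CHLA 04, 457 TPM in CHLA 02, 58.7 TPM in CHLA 05 and 0 in CHLA 06. Of 17 same-strand MLT1 copies in ADGRB3, 13 had at least 10 reads in a library, with 1146 and 1518 reads in CHLA 04 over all 17 and 1 and 0 in CHLA 06. The 18 opposite-strand copies had 1 read in all 6 libraries together. In PBX3, a homeodomain factor, an MLT1N2 at chr9:125810589-125810930 was at 746 and 478 TPM in CHLA 04 and 581 TPM in CHLA 02, and at 50.9 to 61.1 TPM in the other 3 libraries. PBX3 was at 627 and 440 TPM in CHLA 04, 381 TPM in CHLA 02 and 40.9 to 79.7 TPM in the others.

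**Figure D5:**
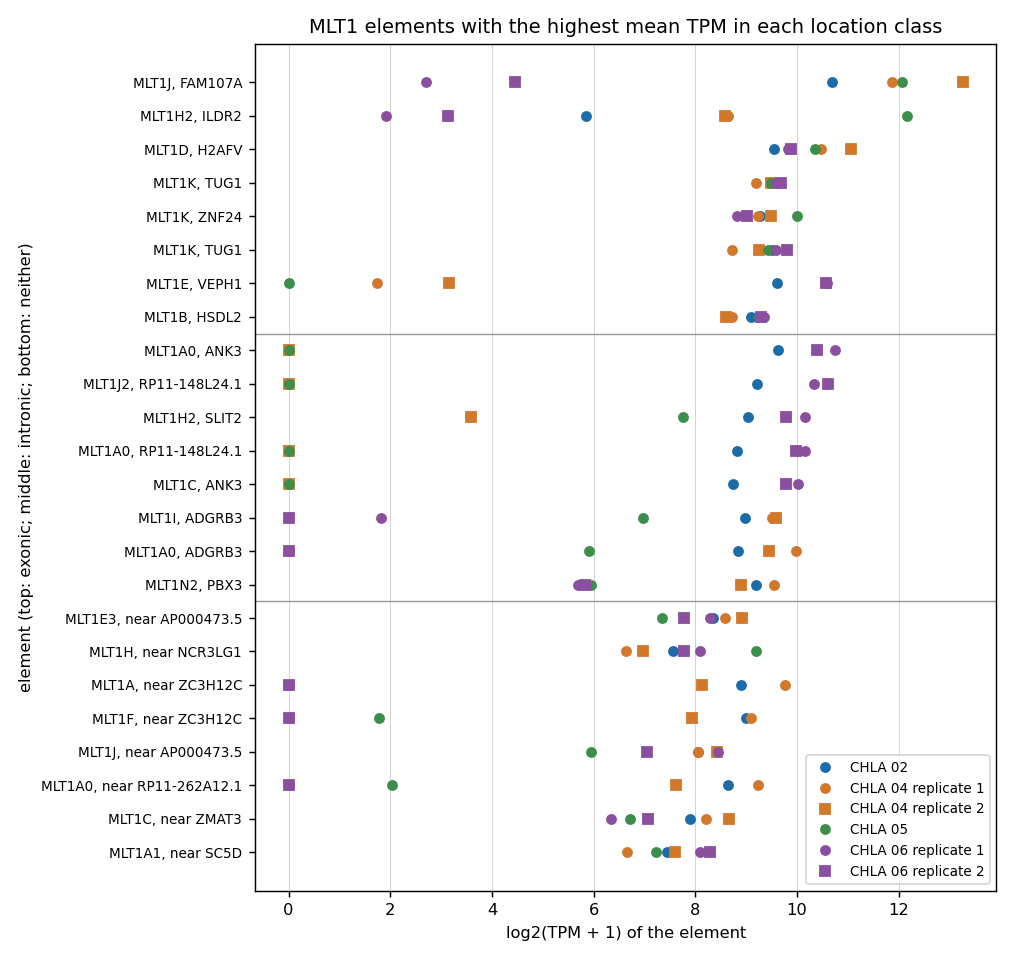
TPM of the 8 MLT1 elements with the highest mean over the cell lines in exons (top), introns (middle) and neither (bottom), as log2(TPM + 1), with 1 point per library and labels giving the gene that holds the element or lies nearest. The elements in ANK3 and RP11-148L24.1 are at 0 in CHLA 04 and CHLA 05, those in ADGRB3 are at or near 0 in CHLA 06, and those in H2AFV, TUG1, ZNF24 and HSDL2 stay above 389 TPM in every library.

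Outside the genes of the files, the 8 highest elements had lower means than the 8 highest in exons or introns. An MLT1E3 at chr21:16643750-16644340 and an MLT1J at chr21:16641784-16641981, 3.07 and 1.10 kb downstream of AP000473.5 on its strand, ranged from 162 to 482 and from 61.1 to 347 TPM. Both overlap exons of MIR99AHG, a microRNA host gene, in GENCODE release 44. An MLT1A1 at chr11:121310760-121310959, 2.07 kb downstream of SC5D, a sterol desaturase gene, ranged from 100.2 to 312 TPM and lies in the longer last exon that release 44 gives SC5D. An MLT1H at chr11:17379354-17379693, 2.01 kb downstream of NCR3LG1, a ligand of a natural killer cell receptor, was at 582 TPM in CHLA 05 and 98.2 to 271 TPM elsewhere. NCR3LG1 was at 61.3 TPM in CHLA 05 and 10.6 to 26.2 TPM elsewhere. In release 44 this plus-strand MLT1H also overlaps KCNJ11, a gene on the minus strand, but no exon. An MLT1C at chr3:178950243-178950664, 66.6 kb downstream of ZMAT3 and in no GENCODE gene, ranged from 80.1 TPM in CHLA 06 to 403 TPM in CHLA 04.

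A run of minus-strand copies on chromosome 11 had nearly all of its reads in CHLA 02 and CHLA 04. An MLT1A at chr11:110039618-110039992 was at 474 TPM in CHLA 02, 869 and 278 TPM in CHLA 04 and 0 in the other lines. An MLT1F at chr11:110012190-110012644 was at 511 TPM in CHLA 02, 546 and 245 TPM in CHLA 04, 2.42 TPM in CHLA 05 and 0 in CHLA 06. An MLT1A0 at chr11:109952940-109953291 was at 398 TPM in CHLA 02, 603 and 197 TPM in CHLA 04, 3.12 TPM in CHLA 05 and 0 in CHLA 06. From the first to the last of them, the 5 minus-strand MLT1 copies had 691 reads in CHLA 02, 789 and 412 in the CHLA 04 replicates, 2 in CHLA 05, and 1 and 0 in the CHLA 06 replicates. The 6 plus-strand copies had 0 to 7 reads in a library. The 6 minus-strand elements of other families there had 690 reads in CHLA 02, 939 and 433 in CHLA 04, and 0 to 3 in the other 3 libraries. In every named copy of this run the first CHLA 04 replicate was above the second. GENCODE release 44 places an unnamed long noncoding RNA gene and RDX over the run on the same strand. Another unnamed long noncoding RNA gene, on the plus strand, overlaps the MLT1A0.

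Elements that set 1 cell line apart were most numerous in CHLA 05. An element was called where TPM + 1 in every library of a line was at least 4 times that of each library of the other lines, with at least 10 reads in every library of the line. In CHLA 05, 270 of 2602 MLT1 elements with that many reads were called (10.4%), against 9.73% of all LTR elements. In CHLA 06 it was 87 of 2185 (3.98%), against 3.15% of all LTR elements. In CHLA 04 it was 18 of 1667 (1.08%), against 1.01%, and in CHLA 02 it was 9 of 2748 (0.328%), against 0.183%. The shares of MLT1 elements were thus near those of all LTR elements. The rule asks more of a line with 2 libraries: without either replicate, 178 to 180 were called in CHLA 06 and 51 to 70 in CHLA 04. Without the first CHLA 04 replicate, 17 were called in CHLA 02. There was no test, since each line was 1 sample.

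Most elements called in CHLA 05 in introns on the gene's strand lay in genes that were themselves high in that line. Of the 270, 200 were intronic, 54 outside genes and 16 exonic, and 60 had no read in any other library. Of all called ones, 177 (65.6%) lay in introns on the strand of their gene, close to the share among tested elements (1698 of 2602, 65.3%). The host gene had its highest TPM in CHLA 05 for 171 of the 177 called ones. For 123 (69.5%) the gene itself passed the 4-fold rule in CHLA 05, against 21 of 1521 (1.38%) of same-strand intronic elements that were tested and not called. The 177 lay in 85 distinct genes, so some genes were counted several times. In CHLA 06 the gene passed for 6 of 31 such called copies (19.4%), against 1 of 1216 (0.082%) not called. In CHLA 04 it passed for 0 of 12 and in CHLA 02 for 0 of 3. Among the copies called in CHLA 05, ERBB4, a receptor tyrosine kinase, held 9. NETO1, a synaptic membrane protein, and NLGN4X, a neuroligin, held 7 each. FSTL5, a follistatin-like protein, BTBD11 and RP11-525K10.3 held 6 each. All of these copies were on the gene's strand. The 18 same-strand MLT1 copies in ERBB4 had 290 reads in CHLA 05, 5 in CHLA 02, 10 and 11 in CHLA 04, and 0 and 1 in CHLA 06, and the 54 opposite-strand copies had none. ERBB4 was at 76.9 TPM in CHLA 05 and 0 to 5.28 TPM elsewhere. FSTL5 was at 126.9 TPM in CHLA 05 and at most 0.98 TPM elsewhere, and its 13 same-strand copies had 127 reads in CHLA 05 and none in the other 5 libraries. The 32 opposite-strand copies in FSTL5 had 17 reads in CHLA 05 and none elsewhere. NLGN4X was at 161 TPM in CHLA 05 and at most 9.54 TPM elsewhere, and BTBD11 at 223 TPM and at most 23.2 TPM. RP11-525K10.3 was less set apart, at 5.45 TPM in CHLA 05, 0.87 and 1.73 TPM in CHLA 04 and 0 in CHLA 02 and CHLA 06.

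The copies with the highest fold in CHLA 05 had no read in the other 5 libraries. An MLT1J1 at chr13:109226286-109226476, 18.3 kb downstream of MYO16 on the other strand, had 21 reads (121 TPM), at least 5.76-fold above the level of 3 reads in any other library. An MLT1E1A at chr7:51118187-51118490 in an intron of COBL, an actin nucleator, had 32 reads (116 TPM), at least 8.78-fold above that floor, and COBL was at 141 TPM in CHLA 05 and at most 1.68 TPM elsewhere. An MLT1A0 at chr14:43026746-43027111, 323 kb from the nearest gene, had 37 reads (111 TPM), at least 10.2-fold above it. In CHLA 06, an MLT1F2 at chr5:137466773-137467356 in an intron of SPOCK1, a proteoglycan, was at 59.6 and 39.4 TPM and at 0 to 1.88 TPM elsewhere. SPOCK1 was at 129 and 88.7 TPM in CHLA 06 and 0.88 to 11.7 TPM elsewhere. The other 2 named in CHLA 06, an MLT1I at chr8:131277300-131277506 and an MLT1C at chr8:131094994-131095226, had 11 to 15 reads in each replicate and none elsewhere, which puts them at least 2.63 and 2.81-fold above the floor.

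Most of those named in CHLA 04 and CHLA 02 were close to the minimum of 10 reads. In CHLA 04, an MLT1A1-int at chr15:24912290-24912548 in SNRPN, an imprinted splicing gene, had 10 reads in each replicate (51.6 and 34.7 TPM) and none elsewhere, at least 2.73-fold above the floor, and it overlaps an exon of SNRPN in GENCODE release 44. SNRPN was highest in CHLA 04, at 690 and 491 TPM, against 103 to 301 TPM elsewhere. An MLT1C at chr13:107362260-107362704 in FAM155A was at 30.0 and 32.3 TPM in CHLA 04 and 0 to 2.47 TPM elsewhere. An MLT1C at chr1:58061254-58061706 in DAB1, an adaptor of reelin signalling, was at 41.3 and 25.8 TPM in CHLA 04 and 0 to 2.19 TPM elsewhere, and DAB1 was at 16.9 and 16.3 TPM in CHLA 04 and 0.02 to 5.99 TPM elsewhere. In CHLA 02, an MLT1J2 at chr7:37522531-37522730, 73.3 kb from ELMO1, was at 99.3 TPM (20 reads), with 13.4 and 8.99 TPM (2 reads each) in CHLA 04 and 0 in the other 3 libraries. An MLT1A at chr6:19575039-19575418 and an MLT1B at chr2:110020780-110021182 had 11 reads each in CHLA 02 (28.8 and 27.1 TPM) and at most 2 reads in any other library.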

How the data were processed

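The study sequenced total RNA of the cell lines with the TruSeq Stranded Total RNA protocol as 125 bp paired reads, and the submitters' notes name CASAVA 1.8.2, FastQC and Trimmomatic. The authors mapped reads to GRCh38 with the CLCbio RNA-Seq tool, once to Ensembl release 82 transcripts and once to RepeatMasker LTR features, and deposited TPM for each transcript and each LTR element, with no further normalization in the files. The tool was run at its default parameters. What these were for strand and for reads with several matches is not given in the sources used here. Members, gene lists and tests were chosen with earlier results of these data known.

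LTR reads were recovered from the deposited TPM as whole numbers: TPM times length is a multiple of what 1 read is worth, and at least 99.996% of values came out within 0.25 of a whole read in each library (355302 to 511408 reads). Recovery and calls were checked on simulated data. Elements were placed by the exons and spans of the 173113 transcripts in the gene files (bedtools 2.31.1), of which 167842 were found in GENCODE release 44 and 82.6% of those had identical coordinates, so that genome sequence and annotation are of the same build. Genes are named as in the files, and sums of transcript TPM give gene levels. The analysis used Python 3.11.15, pandas 2.3.3, numpy 2.4.6 and scipy 1.17.1. Log2 ratios of reads per kb were averaged over technical replicates and tested over the 4 lines with a two-sided exact sign-flip permutation test. Among MLT1 elements with at least 10 reads in each of 2 replicates, TPM differed by a median of 0.43 (CHLA 04, n = 1667) and 0.32 (CHLA 06, n = 2185) on the log2 scale. Calls between lines used a pseudocount of 1 TPM. Named elements were the 8 with the highest mean TPM in each location class and the 3 called elements of each line with the highest fold. The neighbouring elements in ANK3, on chromosome 11 and in the genes with most called copies were chosen after their values were seen. Alternatives were other length, read, fold and pseudocount limits, quantile normalization, and leaving out elements or replicates. GENCODE release 44 as a second annotation and the host gene classes without ANK3 were added after seeing the data. Alignments used match 1, mismatch -1, gap opening -2 and gap extension -0.5. The sequences of some copies are not reported here.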

Additional observations from a re-analysis of the deposited data

Results flagged for a closer look

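The ratio of MLT1 to other families changed sign between lines in a few cases, and none of these differences was tested. MLT1 density was above that of all other LTR elements in every library of CHLA 05 (log2 ratio 0.024) and of CHLA 06 (0.025), and below it in CHLA 02 (-0.045). MLT1 density was above that of THE1 elements in CHLA 05 (log2 ratio 0.0029) and below it in every library of CHLA 02, CHLA 04 and CHLA 06, with line means of -0.17, -0.32 and -0.21.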

How the results depend on the processing

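No paired analysis was possible because the shared replicate numbers of CHLA 04 and CHLA 06 name technical replicates of different lines. The location ratios and the strand ratio kept their direction under all alternatives run for them, with 1.99 to 5.31-fold for exon over intron, 2.44 to 5.32-fold for intron over neither and 8.84 to 41-fold for gene strand over opposite strand. Of 126 values under alternatives, 87 were labelled as the same, 34 as moved and 5 as reversed. Ratios between classes were judged by their direction and counts of elements by a fixed fold limit around the main count. The MLT1 share was judged by the spread between technical replicates, and the range over subfamilies by the spread over lines. In elements outside genes the log2 ratio to MST was -1.13, against -0.49 over all elements. The mean MLT1 share of LTR reads, 24.3%, became 31.8% of deposited TPM, 31.6% without -int features and 23.6% in elements of at least 200 bp. The log2 ratio to all other LTR elements, -0.0024, turned to 0.085 in elements of at least 200 bp, 0.018 in exonic elements and, over the replicates left out, lay between -0.011 and 0.0060. In exonic elements the ratios to MST and THE1 turned to 0.012 and 0.080. Detected MLT1 elements fell from 35894 to 10176 and 5666 when 5 and 10 reads were asked for. Called elements, given for CHLA 02, for CHLA 04, then CHLA 05 and last CHLA 06, numbered 1, 3, 145 and 24 with a pseudocount of 10 TPM, 18, 48, 512 and 148 at 5 reads, 5, 7, 112 and 50 at 20 reads, 1179, 364, 2530 and 618 with no read filter, 41, 125, 548 and 424 at a fold of 2, and 0, 4, 169 and 9 at a fold of 8. With a replicate left out they numbered 10 to 17, 18 to 70, 285 to 313 and 91 to 180. The cause of these shifts was not tested beyond the limits themselves. With 1 read worth 3.43 to 5.10 TPM on a median element, depth limits what can be said of single elements under 10 reads, and 15558 of the detected elements never had more than 1 read in a library.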
